A study of Drosophila melanogaster with 4 samples.

Results

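H3K4me3 peaks from the heterochromatic, centromere-proximal and fourth-chromosome parts of the fly genome were examined in whole Drosophila melanogaster embryos of 8 to 16 h. They were chosen by position only. They comprised every peak on chromosome 4 and on the heterochromatic (Het) scaffolds 2LHet, 3LHet, 3RHet, XHet and YHet, and the peaks at the centromere-proximal ends of 4 arms. These ends began at 21500000 on 2L, 23000000 on 3L and 20900000 on X, and on 3R they took in peaks ending at or before 1500000, all on FlyBase release 5. The rule selected 350 of the 7425 deposited peaks, and they were set beside the other 5066 peaks of 2L, 3L, 3R and X, called the rest below. Of the 350 peaks 77 lay on chromosome 4, 35 on Het scaffolds and 238 at the proximal ends.

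A rabbit polyclonal antibody to histone H3 trimethylated at lysine 4 was used for 2 ChIP libraries, and 2 further libraries were of input DNA. All 4 came from 1 strain, named Y cn bw sp in the labels. It carried y[1] and oc[R3.2], then Gr22b[1], Gr22d[1] and cn[1] with CG33964[R4.2], bw[1] and sp[1], and then LysC[1], lab[R4.2] and MstProx[1] with GstD5[1] and Rh6[1]. Both ChIP and input libraries share this genotype and stage. Whole embryos were used, so fewer marked cells and less mark per cell cannot be told apart. The deposited outcome is 1 peak list with 1 score per peak and no column per library. No value below therefore has a replicate error, library depth is unknown, and no p-value was computed over peaks. The 95% intervals below treat peaks as independent and cover counting error only.

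H3K4me3 marks the nucleosomes just downstream of active promoters. Heterochromatin, which packs the repeat-rich sequence around the centromeres and most of the Y chromosome, is instead marked by methylation of histone H3 at lysine 9 and bound by the protein HP1a. Some genes are known to work inside it, such as lt (light, a protein of vesicle traffic) and cta (concertina, a G protein subunit needed for gastrulation) near the base of 2L. Chromosome 4 is a small chromosome whose genes are active although it is coated with heterochromatin proteins. Its genes include ci (the transcription factor of the Hedgehog pathway), ey and toy (Pax family regulators of eye development), pan (the transcription factor of the Wnt pathway) and bt (a giant protein of muscle). The RefSeq gene table, which is on release 6, lists 80 protein-coding genes on chromosome 4, and the list on release 5 holds 77 peaks there. The releases differ, so no peak was assigned to a gene, and the 2 numbers do not say how many genes had a peak.

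No peak of chromosome 4 or the Het scaffolds was a broad domain of 4 kb or more, while some peaks of the 2L, 3R and X ends were. Across the selected peaks and the rest together, 7.72% of peaks were 4 kb or wider. On chromosome 4 and the Het scaffolds 0 of 112 peaks reached that width, with an exact 95% upper limit of 3.24%. In the rest 401 of 5066 peaks did, or 7.92% (7.19 to 8.69). At the proximal ends 17 of 238 peaks were 4 kb or wider, or 7.14% (4.22 to 11.2), an interval that holds the share of the rest. Of these 17 peaks 7 belong to an evenly spaced row on 2L described further on, and without that row 10 of 231 peaks were as wide, or 4.33% (2.10 to 7.82), against 7.79% of the rest without it. For chromosome 4 alone the upper limit was 4.68%, below the share of the rest, and for the scaffolds alone, with 0 of 35, it was 10.0%, above it. Of the 17 broad peaks 9 were at the 3R end, 7 at the 2L end and 1 at the X end. The 16 peaks of the 3L end had none, and their widest peak was 1926 bp. Peaks of 10 kb or more were rare, with 0 among the 350 selected peaks and 13 among the 5066 of the rest. That was 0.24% of both together, so the 0 does not set these places apart.

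The median width was 1138 bp on chromosome 4 and the Het scaffolds (95% interval 998 to 1321), 1224 bp at the proximal ends (1101 to 1507) and 1268.5 bp in the rest (1222 to 1311). The upper quartile differed more, at 1588 bp on chromosome 4 and the scaffolds, 2212 bp at the proximal ends and 2246 bp in the rest. Chromosome 4 and the scaffolds had 43.8% of their peaks between 1000 and 2000 bp (34.4 to 53.4), against 28.8% in the rest (27.6 to 30.1) and 29.2% of the selected peaks and the rest together. Their share between 2000 and 4000 bp was 15.2% (9.10 to 23.2), against 22.2% in the rest (21.1 to 23.4), and these intervals overlap. Narrow peaks, under 500 bp, were 22.5% of the selected peaks and the rest together. They made up 28.6% on chromosome 4 and the scaffolds (20.4 to 37.9), 21.8% at the proximal ends (16.8 to 27.6) and 22.4% in the rest (21.2 to 23.5). The class from 1000 to 2000 bp is the only width class besides the broad one in which the intervals of chromosome 4 with the scaffolds and of the rest did not overlap.

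**Figure D1:**
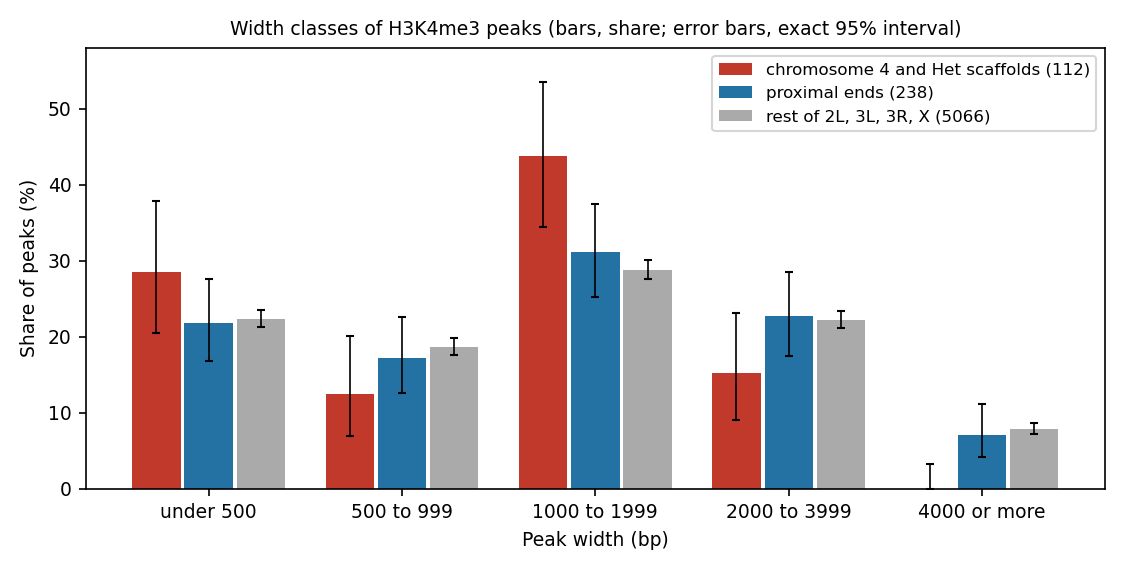
Share of peaks in 5 width classes on chromosome 4 and the Het scaffolds (red), at the proximal ends (blue) and in the rest of 2L, 3L, 3R and X (grey), with exact 95% intervals. The class of 4000 bp or more holds 0 of 112, 17 of 238 and 401 of 5066 peaks.

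At equal width, peaks of chromosome 4 and the Het scaffolds scored higher than peaks of the rest. The authors' score has no stated scale and grows with width, so each peak was set against the running median score of the 200 rest peaks nearest in width. The peaks of chromosome 4 and the scaffolds had a median of 1.32 times this running median (95% interval 1.17 to 1.47), and 81 of 112 lay above it. Of the selected peaks and the rest together 50.9% lay above. On chromosome 4 alone the median was 1.29 times (1.11 to 1.48), with 55 of 77 above, and on the Het scaffolds it was 1.37 times (1.03 to 1.60), with 26 of 35 above. By scaffold the median was 1.48 times on 3LHet (0.883 to 2.19) and 1.47 times on 3RHet (0.642 to 4.76). It was nearer the rest on 2LHet, at 1.07 times (0.212 to 2.00) with 3 of 6 above, and on XHet, at 1.02 times with 3 of 4 above. At the proximal ends it was 1.10 times (1.01 to 1.20), with 137 of 238 above. Ranks do not depend on the unknown scale. Among rest peaks of the same width decile, the median percentile of the score was 74.95 for chromosome 4 and the scaffolds (60.7 to 79.5) and 60.9 for the proximal ends (49.9 to 67.0), where 50 means no difference from the rest. Over all 350 selected peaks the log2 score over the running median was 0.23, and it was 0.10 when the lowest-scoring 50% of the list was left out.

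Score medians were also compared by width class, and the intervals of chromosome 4 and of the scaffolds overlapped wherever both are given. Between 1000 and 2000 bp the median score was 238.35 on chromosome 4 (162.44 to 250.69), 200.9 at the proximal ends (184.37 to 236.76) and 143.1 in the rest (138.02 to 149.91). The 14 Het scaffold peaks of this size had a median of 141.7 (105.07 to 218.16), which is near the rest. Width is matched only loosely here. The running median of the rest rose from 65.5 at 1011 bp to 202.2 at 1886 bp, within this class. Chromosome 4 and the scaffolds together had 210.2 here (142.54 to 240.4), and this interval overlaps that of the rest. From 2000 to 4000 bp they had 287.58 (210.22 to 351.43), against 252.71 in the rest (245.69 to 260.05), which also overlap. Under 500 bp the medians were 13.56 on chromosome 4 (12.76 to 17.38), 13.78 on the scaffolds (8.06 to 27.09) and 10.92 in the rest (10.76 to 11.22). From 500 to 1000 bp few peaks were left, and the intervals of chromosome 4 (11.6 to 167.07) and of the scaffolds (13.16 to 132.87) both held the rest median of 30.84. Without any matching on width the score medians were 116.2 on chromosome 4 and the scaffolds (88.42 to 145.21) and 104.99 in the rest (97.04 to 111.64). These unmatched intervals overlap.

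**Figure D2:**
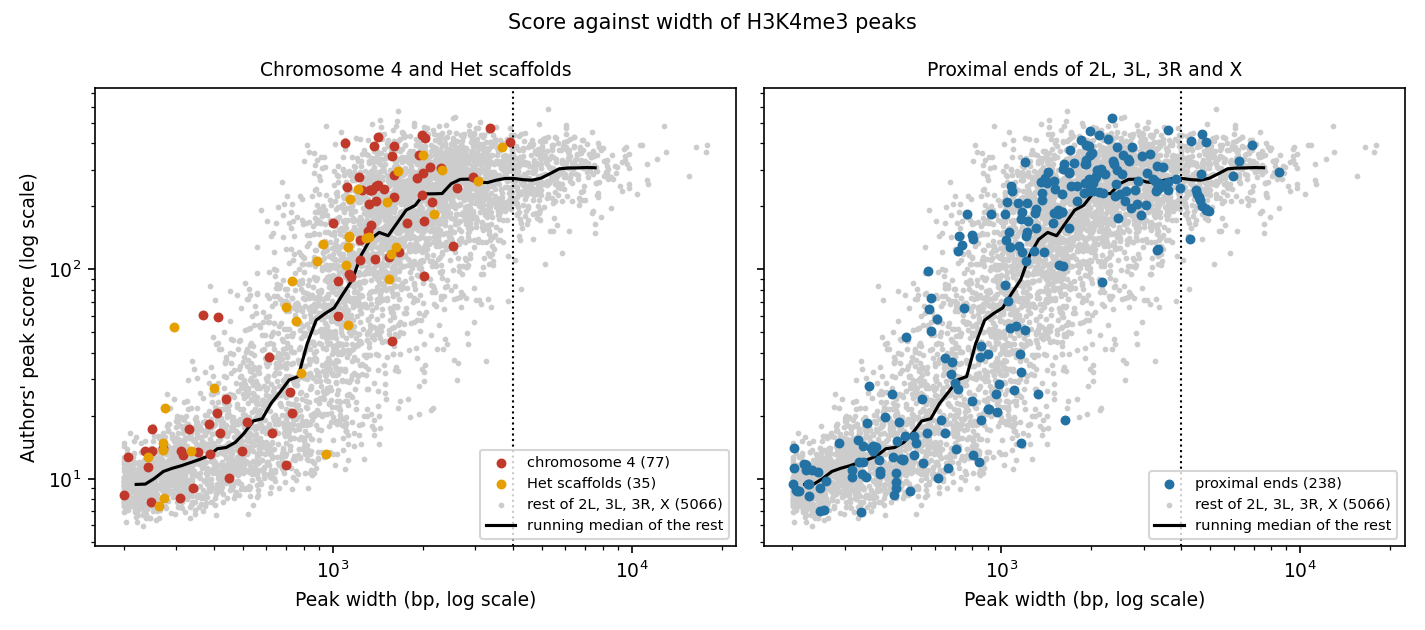
Authors' score against width, both on log scales, for peaks of chromosome 4 (red) and Het scaffolds (orange) on the left and of the proximal ends (blue) on the right, over the rest of the 4 arms (grey) and its running median (black line). Of the red and orange points 81 of 112 lie above the line and none lies right of the dotted line at 4000 bp, while 17 blue points do.

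Chromosome 4 carried 77 peaks over 1.29 Mb, or 59.7 per Mb (47.1 to 74.6), against 55.3 per Mb in the rest (53.8 to 56.8). When the rest was tiled into 69 windows of the same length, 25 held 77 peaks or more, so the number of peaks was ordinary. The peaks covered 7.19% of its span. In none of the 69 windows was the median score over the running median as high as on chromosome 4. On the log2 scale it was 0.37 on chromosome 4 (0.15 to 0.56), and the windows ran from -0.27 to 0.33, a range that this interval overlaps. In 3 of the 69 windows no peak reached 4 kb, so the absence of broad domains from a stretch this long also occurred elsewhere. In 2 windows the widest peak was no wider than 3911 bp, the widest of chromosome 4.

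The 4 highest peaks of chromosome 4 were all wider than the median of the rest. The first, at 1048321 to 1051669, was 3349 bp wide and scored 474.81. Next came 462604 to 464594, which scored 436.92 over 1991 bp, and 486233 to 487652, which scored 430.12 over 1420 bp. The peak at 332740 to 334767 had 2028 bp and scored 423.03. These 4 were among the 10 highest of all 350 selected peaks, of which 4 more were at the 3R end and 2 at the 2L end. The widest peak of chromosome 4, at 682209 to 686119, scored 404.24, or 1.49 times the running median for its width. The peak farthest above the running median on this chromosome, at 590443 to 591540, was 1098 bp wide and scored 400.23, or 5.22 times. Near the far end of the chromosome 2 narrow peaks also stood out. A peak of 369 bp at 1335840 to 1336208 scored 60.53, and one of 412 bp at 1348797 to 1349208 scored 59.28, which were 4.89 and 4.26 times the running median. They were the 2 highest peaks under 500 bp on chromosome 4, and the second of them was picked after its values were seen.

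Along chromosome 4 the peaks were unevenly spread. In 4 equal parts of the span there were 25, 23, 7 and 22 peaks. The third part, with 7 peaks, had a median score of 247.59, while the others had medians of 152.4, 129.7 and 102.9 in order. Peaks above the running median numbered 19, 15, 5 and 16 in the 4 parts, so they were the majority in each.

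**Figure D3:**
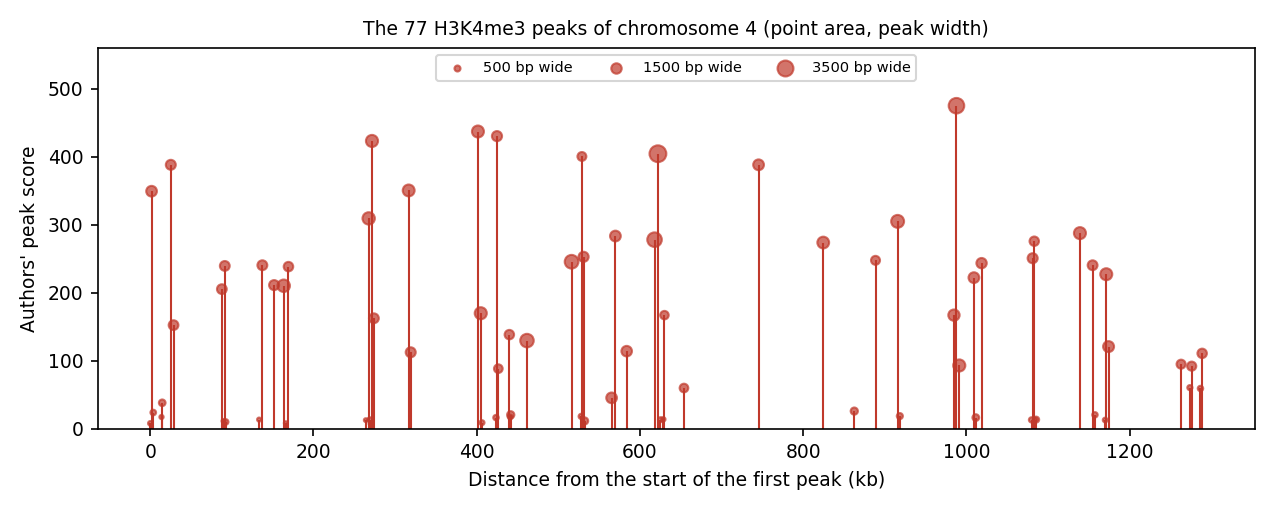
Authors' score of each of the 77 peaks of chromosome 4 against distance in kb from the start of the first peak, with point area in proportion to peak width. The third of 4 equal parts of the span holds 7 peaks, and the highest peak scores 474.81.

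The Het scaffolds held 35 peaks, of which 14 were between 1000 and 2000 bp wide and 9 were under 500 bp. The 16 peaks of 3LHet scored from 8.06 to 384.13 with a median of 114.2. Its highest and widest peak, at 594552 to 598245, had 3694 bp and a score of 384.13. Next to it lay a narrow peak of 271 bp that scored 13.78 and, at 599039 to 601360, a peak of 2322 bp that scored 299.44. The second highest of 3LHet, at 2397752 to 2399758, scored 351.43 at 2007 bp. Of these 16 peaks 12 lay above the running median. The 6 peaks of 2LHet scored 210.22, 7.42, 184.96, 296.2, 13.16 and 21.84 in order of position. They thus held 3 high and 3 low peaks, the highest at 167516 to 169169 with 1654 bp.

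On 3RHet the 8 peaks were all 1296 bp wide or less and scored between 14.8 and 143.43. None reached the upper quartile of scores in the rest, which 25.4% of the selected peaks and the rest together did. With 8 peaks the exact upper limit was 36.9%, which holds that share. Of the 8 peaks 7 were above the running median for their width. The highest, at 1704972 to 1706107, had 1136 bp and 1.58 times the running median. The 4 peaks of XHet scored 263.19, 145.21, 89.97 and 142.54 in order of position and lay within a span of 0.0259 Mb. The first, at 60185 to 63248, was 3064 bp wide. YHet had 1 peak, of 335 bp, with a score of 13.56. The Y chromosome is known mainly for genes used in sperm formation.

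Peaks were sparse on the larger scaffolds. Counted from first to last peak, the density was 8.00 per Mb on 3LHet (4.57 to 13.0) and 13.3 on 3RHet (5.72 to 26.1), against 55.3 in the rest. The first peak began at 410568 on 3LHet and at 1704972 on 3RHet, and the sequence before it is left out. Counting that sequence would lower both densities, so these values do not rank the scaffolds. Stretches without a peak were measured between neighbouring peaks only, not before the first or after the last. The longest such stretch among all the selected parts was on 3LHet, from 1396465 to 2189860, or 793396 bp. The next were on 3LHet from 709973 to 1395709, with 685737 bp, and on 3RHet from 1936339 to 2308347, with 372009 bp. The longest such stretch in the rest was 480497 bp. The share of these scaffolds to which reads could be mapped was not examined, and its part in the density was not tested.

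The 4 proximal ends differed from each other in how many peaks they held. The 3L end had 16 peaks over 1.44 Mb, or 11.1 per Mb (6.33 to 18.0), against 57.4 in the rest of 3L. Of 15 other windows of 3L of this length, 0 held so few, and the lowest held 59. The X end had 48 peaks, or 31.7 per Mb (23.4 to 42.0), against 54.7 in the rest of X, and 1 of 13 windows held as few or fewer. The 2L end had 51 peaks, or 34.9 per Mb (26.0 to 45.9), against 53.1 in the rest of 2L, and 3 of 14 windows held as few or fewer. The 3R end went the other way. It had 123 peaks, or 82.2 per Mb (68.3 to 98.1), against 55.7 in the rest of 3R, and 15 of 17 windows held as few or fewer.

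On 3L few peaks lay near the centromere. In bins of 250 kb counted from the peak nearest the centromere, the 3L arm had 1, 1, 2, 3, 3 and 6 peaks over the first 1500 kb, and the next 10 bins had 8, 8, 2, 15, 14, 25, 31, 12, 19 and 8. On 3R the corresponding 6 bins had 28, 14, 16, 3, 19 and 43 peaks, with no such order. The X end held 20 of its 48 peaks in a single bin, from 1000 to 1250 kb.

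**Figure D4:**
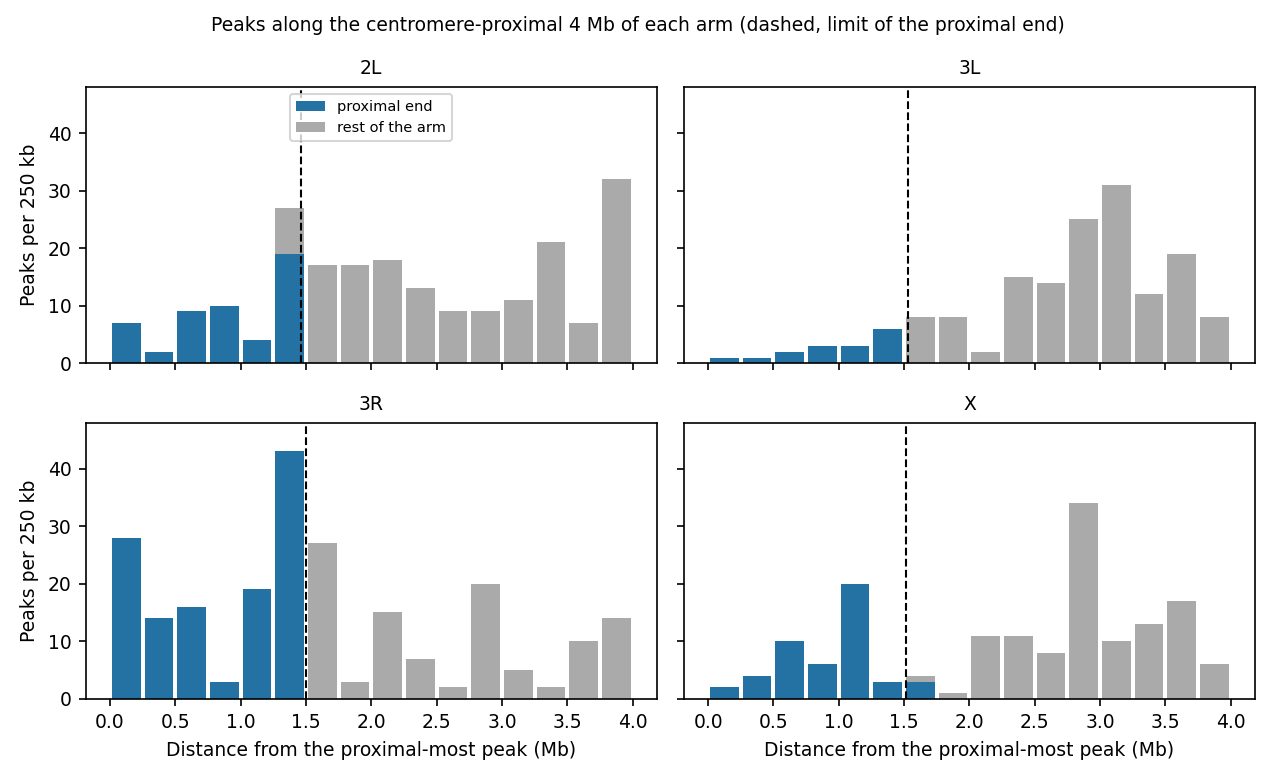
Peaks per 250 kb against distance in Mb from the peak nearest the centromere on 2L, 3L, 3R and X, with peaks of the proximal end in blue, the rest of the arm in grey and the limit of the end dashed. The first 6 bins of 3L hold 1 to 6 peaks each, while those of 3R hold 3 to 43.

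The median score was higher at the 3R end than in the rest of its arm, and at the other ends the intervals overlapped. The median score was 193.18 at the 2L end (72.67 to 234.28), against 122.44 in the rest of 2L (100.39 to 140.56). It was 176.19 at the 3R end (122.52 to 210.97), against 96.76 in the rest of 3R (80.8 to 114.38). Only on 3R did the 2 intervals not overlap. None of the 14 other windows of 2L and none of the 17 of 3R had so high a median. The 3L end had a median of 130.35 (13.97 to 249.66), against 100.23 in the rest of 3L (82.72 to 113.3). The X end had 115.005 (26.92 to 188.79), against 105.89 in the rest of X (93.88 to 114.96). For both of these the interval of the end holds the median of its arm.

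At equal width the 3L end stood highest among the 4, with a median of 1.34 times the running median (1.01 to 1.52) and 14 of 16 peaks above it. The 2L end had 1.12 times (0.865 to 1.45), the 3R end 1.08 times (0.992 to 1.22) and the X end 1.01 times (0.939 to 1.24), and these 3 intervals include 1. On the log2 scale the value of the 3L end was 0.42 (0.015 to 0.61). The 59 windows of corresponding length along the rest of the 4 arms ran from -0.14 to 0.20, a range that this interval overlaps. These windows held 33 to 159 peaks each, more than the 16 of the 3L end, so their medians vary less. The rest of X as a whole lay at 0.948 times the running median (0.925 to 0.990).

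The highest of all 350 peaks was at the 2L end, at 22427077 to 22429424. It was 2348 bp wide and scored 531.09, or 2.26 times the running median. The highest of the 3R end, at 1306154 to 1309752, scored 462.89 with 3599 bp. The highest of the 3L end, at 23086704 to 23088629, scored 393.77 with 1926 bp. The highest of the X end, at 21846477 to 21848836, scored 331.27 with 2360 bp. The 10 highest and the 10 widest of the selected peaks shared 1 peak, at 3R 908148 to 912853, with 4706 bp and a score of 442.36.

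Of the 9 broad peaks of the 3R end 6 scored above the running median and 3 below it, from 0.518 to 1.64 times. By position 3 lay in the first 1 Mb and 6 between 1 and 1.5 Mb. The widest, at 1387651 to 1396144, was 8494 bp wide and scored 290.88. Those at 1471513 to 1478401, 1051788 to 1058042 and 1296531 to 1302470 were 6889, 6255 and 5940 bp wide and scored 394.43, 329.67 and 280.69. These 4 were the only selected peaks of 5 kb or more, against 229 in the rest, and 4.3% of both together were that wide. The lowest-scoring broad peak of this end, at 257577 to 261870, scored 139.9 and stood next to one at 262017 to 266333 that scored 412.82. The single broad peak of the X end, at 21216370 to 21220957, was 4588 bp wide and scored 222.15.

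The 7 broad peaks of the 2L end were of another kind. They formed part of an evenly spaced row that the limit of 21500000 divides. The row ran from 21466209 to 21536150 with 14 peaks in succession, each between 4488 and 4960 bp wide, of which 7 lay inside the limit and 7 outside. From one start to the next the step was 4830 to 5060 bp, with a median of 5043 bp, and the gaps were 212 to 450 bp. Scores were nearly level, at 193.9, 193.18, 201.11, 229.62, 215.77, 239.92 and 190.16 inside the limit in order of position. Outside it they were 245.56, 231.88, 244.67, 229.08, 214.92, 231.59 and 239.59. All 14 scored below the running median for their width, with a median of 0.847 times. The 215 other peaks of the rest between 4000 and 5500 bp had a median score of 273.73, with quartiles of 230.58 and 333.9. On 2L, 3L, 3R, X and chromosome 4, the next longest successions of peaks of such width under 1 kb apart had 2 peaks.

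As background, the replication-dependent histone genes of the fly lie near the base of 2L as many tandem copies of 1 repeat unit, which holds a gene for each of the 5 histones. In the RefSeq table on release 6, 111 genes with such symbols follow each other on 2L, with 0 other protein-coding genes among them. The row was not assigned to these genes, since no annotation of release 5 was used here. Reads from near-identical copies cannot be told apart by sequence, and the labels used here do not give how such reads were placed. The part of read placement in the even scores was not tested. Without the row, 2.92% of the selected peaks were 4 kb or wider, against 7.79% of the rest.

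**Figure D5:**
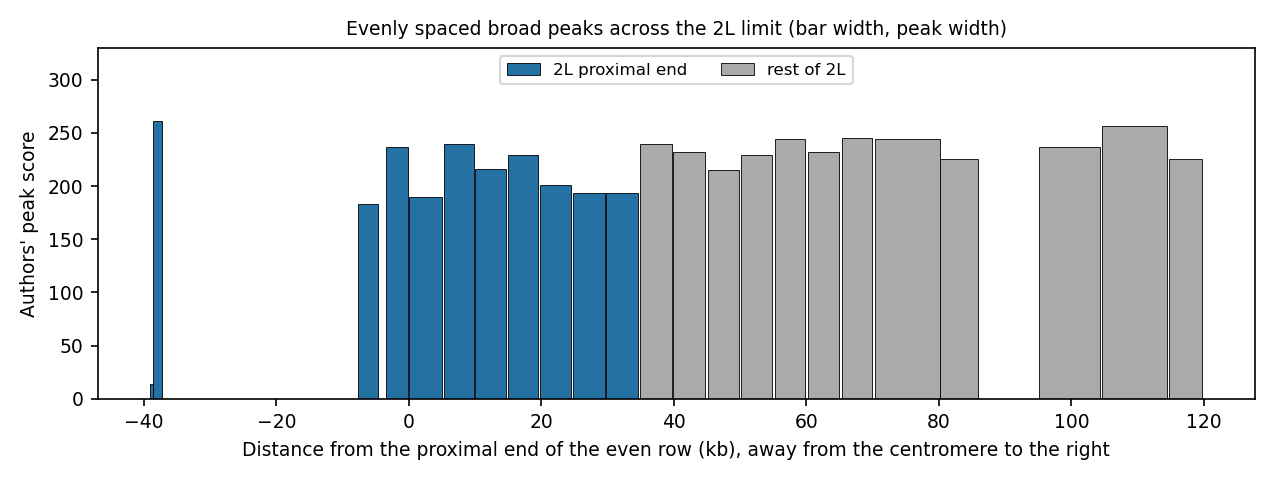
Authors' score of peaks around the limit of the 2L end against distance in kb from the proximal end of the even row, with bars as wide as the peaks, blue inside the limit and grey outside. The row occupies 0 to 69.9 kb, with 14 peaks scoring 190.16 to 245.56.

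Peaks close to a neighbour were less frequent on chromosome 4 than in the rest. Of all neighbouring pairs in both, 46.7% were under 1 kb apart. On chromosome 4 it was 25 of 76 pairs, or 32.9% (22.5 to 44.6), on the Het scaffolds 8 of 30, or 26.7% (12.3 to 45.9), and at the proximal ends 99 of 234, or 42.3% (35.9 to 48.9). In the rest it was 2392 of 5062, or 47.3% (45.9 to 48.6). The interval of chromosome 4 lies below that of the rest, while those of the scaffolds and of the proximal ends overlap it. In the 69 windows of the rest as long as chromosome 4, the share was as low as its own in 2. Among the ends the share was 46.0% on 2L, 45.9% on 3R, 38.3% on X and 13.3% on 3L, the last from 2 of 15 pairs.

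More peaks of chromosome 4 and the scaffolds were solitary. There 58 of 112 peaks, or 51.8% (42.1 to 61.3), had no neighbour within 1 kb, against 38.7% at the proximal ends (32.4 to 45.2) and 28.9% in the rest (27.6 to 30.1). Of all these peaks 29.8% were solitary. The solitary peaks alone still scored 1.32 times the running median of solitary rest peaks (1.19 to 1.67), and 40 of 58 lay above it. The median was 1.32 times both for these 58 peaks and for all 112, each against a different running median. The part of near neighbours in the score was not tested.

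Broad regions made of joined neighbours were less frequent on chromosome 4 and the scaffolds than in the rest. When peaks under 1 kb apart were joined, 26.8% of all regions spanned 4 kb or more and 6.78% spanned 10 kb or more. Chromosome 4 and the scaffolds gave 79 regions, of which 7, or 8.86% (3.64 to 17.4), reached 4 kb. At the proximal ends 28 of 139 regions did, or 20.1% (13.8 to 27.8), and in the rest 741 of 2674, or 27.7% (26.0 to 29.5). Joined regions of 10 kb or more numbered 0 of 79 on chromosome 4 and the scaffolds, with an upper limit of 4.56%, against 7.18% in the rest (6.23 to 8.23). The longest joined region of chromosome 4 was 8418 bp and that of the scaffolds, on 3LHet, 6809 bp. The 4 joined regions of 10 kb or more at the proximal ends were 3 on 3R and 1 of 38017 bp on 2L, in which 8 peaks stood, 7 of them the peaks of the even row inside the limit. Those on 3R were 1289098 to 1309752, with 8 peaks, 1469840 to 1489765, with 11 peaks, and 1387228 to 1398397, with 3 peaks.

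Stretches of 100 kb or more without a peak separated 4.39% of all neighbouring pairs. They separated 7 of 30 pairs on the Het scaffolds, or 23.3% (9.93 to 42.3), and 6 of 15 at the 3L end, or 40.0% (16.3 to 67.7), against 4.21% in the rest (3.67 to 4.80). On chromosome 4 it was 0 of 76 pairs (upper limit 4.74%), and its longest stretch was 94018 bp. At the X end 5 such stretches made up 80.3% of the span, the longest from 21501163 to 21834744 with 333582 bp. In the rest they made up 37.5%. By number they were 5 of 47 pairs at the X end, or 10.6% (3.55 to 23.1). The intervals of chromosome 4 and of the X end both hold the share of the rest.

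Narrow peaks lay beside wide ones in the selected parts and in the rest. Of 84 narrow peaks 40, or 47.6% (36.6 to 58.8), lay under 1 kb from a peak of 1000 bp or wider, against 56.4% in the rest (53.5 to 59.3), and these intervals overlap. On the Het scaffolds 6 of 9 narrow peaks were 10 kb or more from any such peak. On chromosome 4 it was 1 of 23, and in the rest it was 186 of 1133.

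The 5 peaks farthest below the running median each lay under 1 kb from a peak that scored 170.79 or more, the lowest score among these neighbours. How often other peaks lay so near a peak of such a score was not counted. Of all neighbouring pairs 46.7% were under 1 kb apart, so the 5 do not set these places apart. At 2L 22242420 to 22244053 a peak of 1634 bp scored 19.05, or 0.117 times, and it followed a peak of 2437 bp that scored 384.51. The others were at X 21939869 to 21941034 with 14.8, 3R 1302585 to 1303914 with 25.3, 2LHet 169784 to 170734 with 13.16 and X 21855169 to 21856011 with 12.05. The farthest above were, beside those of chromosome 4, X 20906481 to 20907249 with 184.0 at 769 bp, 3R 325 to 895 with 98.74 at 571 bp and X 21481889 to 21482612 with 144.32 at 724 bp.

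The limits of the proximal ends cut through marked regions in 1 case. On 2L the peaks just inside and just outside, both of the even row, scored 193.9 at 4823 bp and 239.59 at 4706 bp. On 3L they scored 393.77 at 1926 bp and 47.09 at 1437 bp, on 3R 240.04 at 3625 bp and 35.2 at 1249 bp, and on X 231.23 at 1889 bp and 17.82 at 577 bp.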

How the data were processed

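The deposited file is 1 list of peaks for the whole series, on FlyBase release 5 and with MACS as its source, per the file headers. The tools named in the submitters' processing notes are BWA, MACS2 and CASAVA 1.7.0.2 and 1.7.0.3, with the build BDGP5. Settings, and how the libraries were combined, are not given in the sources used here. The authors' score per peak has no stated scale and was compared within this list only. The other deposited values are the start and end of each peak, and width was end minus start plus 1.

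Here each score was compared with the running median of log2 scores over the 200 rest peaks nearest in width. That number was 201 at first and was set to 200 after values had been seen, which left the median log2 difference of the selected peaks at 0.23. Medians were given order-statistic 95% intervals, shares exact Clopper-Pearson ones and densities, per Mb from first to last peak, exact Poisson ones. Windows along the arms describe only. Gaps were counted within each sequence or end. Positions to be named were set by rule: the highest and widest of each part, the 10 highest and 10 widest, the 5 farthest above and below the running median, the 5 longest gaps and joined regions, and the peaks at each limit. The selected peaks, cutoffs and comparisons were chosen with earlier results of these data known. Python 3.11.15, numpy 2.4.6, scipy 1.17.1, pandas 2.3.3 and matplotlib 3.10.9 were used. The matching on width was run on simulated peaks, redrawn from the rest with their scores multiplied by a set factor. Such peaks share the widths of the rest, so this checks the calculation only. The list of 7425 peaks covers 15 sequences. Peaks of 2R entered only as an alternative, in which the rest held 6400 peaks. Peaks of 2RHet and of the sequences not named here were not analysed. The 35 Het scaffold peaks are therefore not all the calls outside the main arms.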

Additional observations from a re-analysis of the deposited data

How the results depend on the processing

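No paired analysis was possible because the list has no column per replicate, and no replicate could be left out for the same reason. Of 47 alternatives, 36 stayed within the interval or limit of the main value and 11 moved past it, with 0 reversed. The percentile rank, counted among the 36, is on another scale. It was judged by whether its interval lay above 50. The number of selected peaks, 350, was 230 with the limits 0.5 Mb nearer the centromere. The difference in median score, selected peaks minus rest, was 34.7 and became 7.03 without the lowest 50% by score. Its interval came to include 0 there and with the limits 0.5 Mb nearer the centromere (34.2). The difference in median width was -56.5 bp, with an interval that includes 0. It became -536 and -222.5 bp after merging neighbours under 1000 and 500 bp apart, and -281 bp without the lowest 50%, where the interval excludes 0, as it does without the lowest 25% (-128 bp). The log2 score over the running median, 0.23, stayed above 0 in each of 17 alternatives, the percentile rank being taken minus 50. It was 0.37 among peaks with no neighbour within 1 kb, 0.10 without the lowest 50% and 0.41 without the proximal ends. The difference in the share of peaks of 4 kb or wider was -3.06 percentage points and stayed below 0 in each of 9 alternatives. It was -12.0 and -13.0 after merging under 1000 and 500 bp, and -7.92 without the proximal ends. Its interval came to include 0 without chromosome 4 (-1.69) or without the Het scaffolds (-2.52), and for 3 kb or wider (-3.18). The difference in the share of neighbours under 1 kb apart was -8.43 points, and under 2 kb -3.98 with an interval that includes 0. The settings without 3R, without the even row, with solitary peaks, with other numbers of peaks in the running median, and with 2R in the matching on width were added after the data were seen. Library depth is unknown, so places without a peak are only places not called at the authors' threshold.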

Other observations

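The even succession of peaks at the limit of the 2L end continued away from the centromere in less even form and with a break. No peak was called between one that ended at 21441071 and the next, which started at 21450235. A further 5 peaks from 21416412 to 21465749 scored 225.64 to 256.44, close to the 190.16 to 245.56 of the 14 peaks of the row. Of these 3 were 9254 to 9765 bp wide, or 1.84 to 1.94 times the median step of 5043 bp between starts in the row. These 5 were chosen after seeing their values.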
